A study of Mus musculus with 6 samples.

Results

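The skeletal muscle genes Acta1, Ckm, Mb, Tnnt3, Tnni2, Tnnc2, Mylpf, Myh4, Des and Ttn were followed in macrophage and dendritic cell fractions sorted from the mouse tongue, as a readout of muscle RNA in the sorts. They were chosen by name, and all non-control probes carrying one of these names were taken: 10 of 37008 gene names on the array, and 21 of 56605 probes. The samples were 6 arrays, 2 for each of 3 fractions, from mice of the inbred strain BALB/c. FITC, a fluorescent hapten that sensitises on contact, had been painted on all mice 2 times, and no unpainted group was compared. The labels give the tissue as sublingual mucosa, whereas their protocol describes minced dorsal tongue, digested for 30 min with collagenase and DNase before sorting. Fr1 was CD11c+CD206-, Fr2 was CD11c- and CD206- but positive for the macrophage antigen that Adgre1 encodes, and Fr3 was positive for that antigen and CD206hi. CD11c is the integrin chain encoded by Itgax and CD206 the mannose receptor encoded by Mrc1. Each replicate stands for a separate experiment, per the series' design text. The age of the mice and the number pooled per sort are not given in the sources used here.

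Skeletal muscle fibres contract when myosin heads on thick filaments pull on actin thin filaments. Calcium binding to troponin C moves the troponin complex and opens the actin sites, titin spans each sarcomere from Z disc to M band as a spring, and desmin ties the Z discs together. The tongue is built mainly of striated muscle with a large share of fast fibres. Mature macrophages and dendritic cells use other actin, myosin and tropomyosin genes for movement and uptake.

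A level here is log2 of a probe's processed signal minus the 75th percentile of its array, so that 0 is the 75th percentile. Levels of different probes cannot be ranked against each other, since probes hybridise with different strength. A probe counted as detected where the scanner software called it well above background; the lowest signal so called lay at −2.07 and −1.80 in Fr1, −2.60 and −2.64 in Fr2, −2.57 and −1.95 in Fr3. Where values of 6 arrays are listed, they run from Fr1 replicates 1 and 2 through Fr2 replicates 1 and 2 to Fr3 replicates 1 and 2.

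Probes that show how detection differed between the genes and between probes of 1 gene are printed 5′ to 3′, with T in capitals because the Fr3 replicates differed with the T share of the probe. The probes of Tnnc2 and Mb are given by position only, beside their values. They are, in order, the only Acta1 probe, a Tnnt3 probe detected on 4 arrays, a Myh4 probe detected on all 6 arrays, the Ttn probe detected on all 6 arrays, a Ttn probe detected on none, the only Ckm probe and a Mylpf probe detected on none.
Acta1, A_51_P246854: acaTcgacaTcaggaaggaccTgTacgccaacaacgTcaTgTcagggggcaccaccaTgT
Tnnt3, A_52_P622418: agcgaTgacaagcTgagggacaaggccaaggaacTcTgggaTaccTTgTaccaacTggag
Myh4, A_55_P2744675: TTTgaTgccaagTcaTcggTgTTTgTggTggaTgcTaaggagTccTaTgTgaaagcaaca
Ttn, A_66_P130483: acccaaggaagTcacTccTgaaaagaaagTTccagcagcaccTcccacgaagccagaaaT
Ttn, A_55_P2424042: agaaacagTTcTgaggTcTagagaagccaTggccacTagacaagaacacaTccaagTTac
Ckm, A_51_P380807: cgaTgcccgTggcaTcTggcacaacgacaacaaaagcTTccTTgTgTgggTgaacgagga
Mylpf, A_52_P383572: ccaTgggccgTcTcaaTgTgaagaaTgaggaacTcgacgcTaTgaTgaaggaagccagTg

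On the mouse build mm9 of the files, the Acta1 probe lies at chr8:126416197-126416256 on the minus strand, and the Tnnt3 probe at chr7:149698254-149698479 on the plus strand. The Myh4 probe lies at chr11:67054219-67054278 on the plus strand. The Ttn probe detected on all arrays and the one detected on none lie at chr2:76669859-76669918 and chr2:76802542-76802601, both on the minus strand. The Ckm probe lies at chr7:20002222-20004829 and the Mylpf probe at chr7:134356749-134356985, both on the plus strand. Probes are 60 bases long, so the printed Tnnt3, Ckm and Mylpf probes, whose ends lie 226, 2608 and 237 bases apart on the genome, cross an intron. In all, 6 of the 21 member probes cross one: 1 of them was detected on all 6 arrays and 3 on none. No member probe shared a run of over 15 bases with a probe of another gene. Exon or UTR positions were not analysed here.

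Levels of the sort markers matched the gates in part only. Ptprc, the leukocyte antigen CD45, had mean levels of 4.27, 5.22 and 4.18 in Fr1, Fr2 and Fr3. Mrc1 averaged 3.56 in Fr3, was detected on both arrays of the CD206- fraction Fr2 (0.97 and 0.65), and neither Fr1 array had it well above background (measured mean −3.47). Itgax stood at 3.05 and 2.66 in Fr1, 3.10 and 1.53 in the CD11c- fraction Fr2, and 0.52 and 1.29 in Fr3, so Fr1 and Fr2 overlapped. Adgre1 averaged 4.77, 6.28 and 5.72. Both Fr2 arrays lay on a slide of their own, so Fr2 and slide cannot be told apart; Fr1 and Fr3 shared the other slide and scan. The replicates' Pearson correlation, taken over 20817 genes that are not independent, was 0.883 for Fr1, 0.898 for Fr2 and 0.796 for Fr3.

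Muscle probes were detected in every fraction, but in part only. Of the 21 probes, 5 were detected on all 6 arrays (23.8%, against 29.7% of all probes), 9 on some arrays and 7 on none (33.3%, against 35.0% of all probes). Both Fr1 arrays detected 6 of the 21, or 28.6%, where 44.3% and 42.3% of all probes were detected. The Fr2 arrays detected 10 and 11 and the Fr3 arrays 10 each, which is 47.6%, 52.4%, 47.6% and 47.6% against 49.8%, 50.4%, 49.9% and 44.2% of all probes. By gene, 5 and 4 of the 10 were detected in Fr1, 7 and 8 in Fr2, and 6 and 7 in Fr3. The share of all genes detected by any of their probes was not computed.

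**Figure D1:**
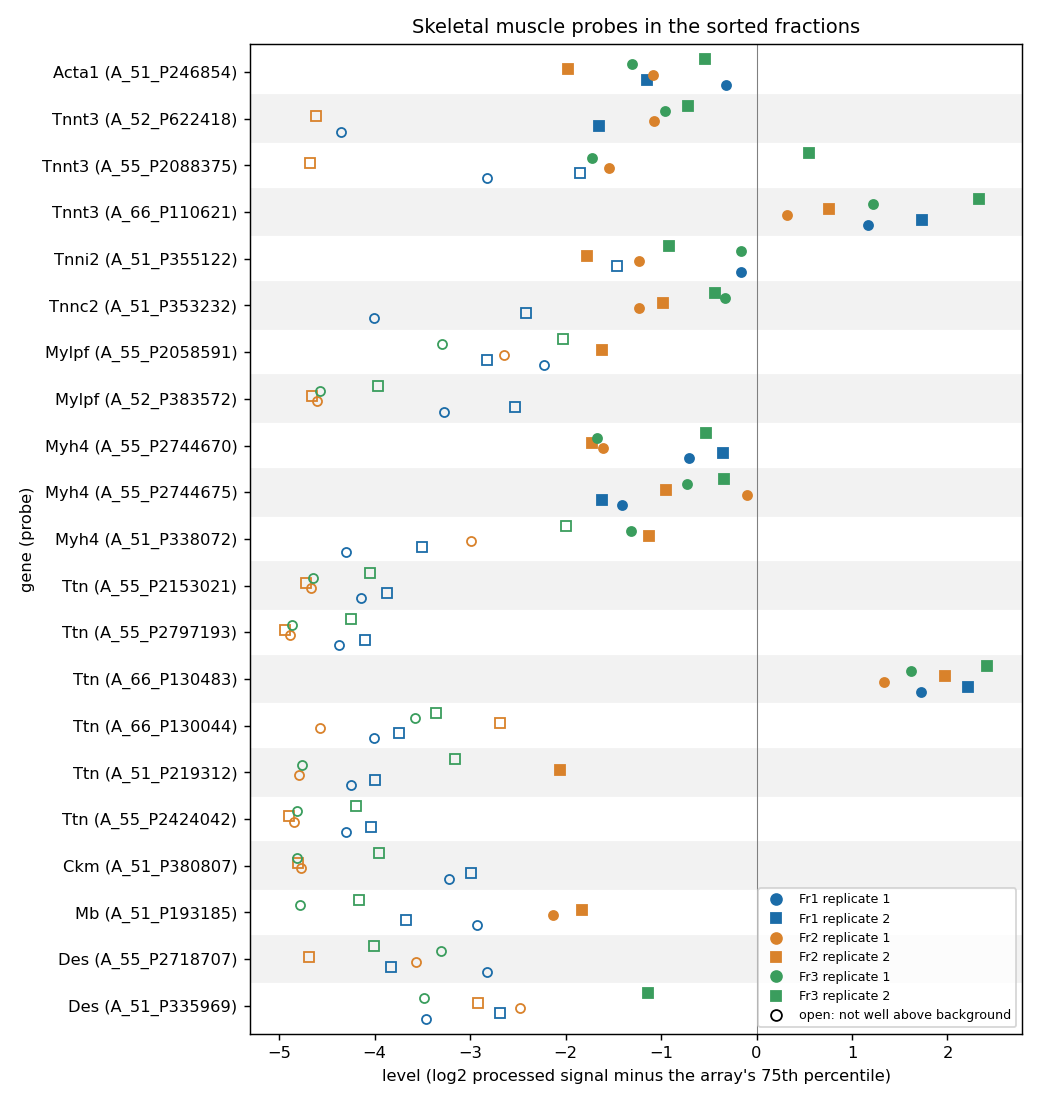
Level of each of the 21 muscle probes (rows) on the 6 arrays; the x axis is log2 processed signal minus the array's 75th percentile, colours are fractions, circles and squares replicates 1 and 2, and open symbols are not well above background. The Ttn probe A_66_P130483 lies between 1.33 and 2.42 on all 6 arrays, while 4 other Ttn probes and the Ckm probe have only open symbols.

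Acta1, the actin of skeletal thin filaments, was detected on all 6 arrays. Its levels were −0.32, −1.15, −1.09, −1.97, −1.31 and −0.54. Fr1 replicate 1 was the highest array and Fr2 replicate 2 the lowest, and the ranges of the 3 fractions overlapped. Signal from other actin genes on this probe was not tested. The shared runs given above cannot decide it, since they compare array probes and not transcripts.

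Myh4, the heavy chain of the fastest fibre type, had 2 probes detected on all 6 arrays, and these differed in the fraction that came out low. The probe A_55_P2744675 gave −1.41, −1.62, −0.10, −0.95, −0.73 and −0.34, lowest in Fr1. The probe A_55_P2744670, which crosses an intron at chr11:67052302-67054117, gave −0.71, −0.35, −1.60, −1.72, −1.67 and −0.52, highest on an Fr1 array. The remaining one, A_51_P338072 at chr11:67073834-67073893, was detected on Fr2 replicate 2 (−1.13) and Fr3 replicate 1 (−1.32) only. Myosin heavy chain genes lie side by side and resemble each other closely, so signal from a related gene on a Myh4 probe cannot be told apart here. The shared runs given above compare array probes with each other and not with transcripts, so they cannot decide this. Mylpf, the regulatory light chain of fast myosin, was nearly undetected: 1 of its 2 probes was above background on 1 array, Fr2 replicate 2 (−1.62), and the intron-crossing probe printed above was detected on none.

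Ttn encodes titin, and its 6 probes disagreed. The probe A_66_P130483 was detected on all 6 arrays, with levels of 1.73, 2.21, 1.33, 1.97, 1.62 and 2.42. Replicate 2 was above replicate 1 in each fraction and the fractions overlapped. A_51_P219312 at chr2:76752155-76752214 was detected on Fr2 replicate 2 alone (−2.06), and the other 4 probes, whose measured levels ran from −4.94 to −2.69, were detected on no array. Every statement on Ttn as a gene below therefore rests on 1 probe of 6.

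Of the contractile members tested, Tnnc2, the calcium-binding troponin subunit of fast fibres, had fraction means that lay furthest apart. It has 1 probe at chr2:164602661-164602720 on the minus strand, with levels of −4.01, −2.41, −1.23, −0.98, −0.33 and −0.43. It was not well above background on either Fr1 array and was detected on all 4 others, so Fr1 did not overlap with Fr2 or Fr3. Tnni2, the inhibitory subunit, with 1 probe at chr7:149630241-149630300, gave −0.16, −1.46, −1.23, −1.78, −0.17 and −0.91. It was detected on every array other than Fr1 replicate 2, and Fr1 spanned nearly the whole range.

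Tnnt3, the subunit that anchors the complex to tropomyosin, has 3 probes along chr7. The probe A_66_P110621 at chr7:149701806-149701865 was detected on all 6 arrays at 1.17, 1.74, 0.32, 0.76, 1.22 and 2.33, lowest in Fr2. The intron-crossing probe A_52_P622418 was detected on 4 arrays and gave −4.35, −1.65, −1.07, −4.62, −0.96 and −0.72. In Fr1 and in Fr2 it was detected in 1 replicate and missing from the other, and only Fr3 had it on both. A_55_P2088375 at chr7:149698467-149698526 gave −2.83, −1.85, −1.55, −4.67, −1.72 and 0.55, and was detected on 3 arrays, among them both Fr3 arrays.

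Genes for muscle energy and oxygen supply and the intermediate filament were detected on few arrays. Ckm, the creatine kinase that regenerates ATP in muscle and one of the most abundant muscle transcripts, was detected on no array, with measured levels of −3.22, −2.99, −4.77, −4.80, −4.82 and −3.95. Mb, the oxygen store myoglobin, has 1 probe at chr15:76846069-76846128 on the minus strand and gave −2.93, −3.67, −2.13, −1.83, −4.79 and −4.16. It was detected on both Fr2 arrays and on no other. Des, the desmin gene, was detected by 1 of its 2 probes, A_51_P335969 at chr1:75363404-75363629, on Fr3 replicate 2 alone (−1.14).

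A gene entered the tests where some fraction had a probe well above background in both replicates, and was then represented by its brightest such probe. Of the 10 members 7 entered: Acta1, Tnnt3, Tnni2, Tnnc2, Myh4, Ttn and Mb. Ckm, Des and Mylpf did not. Mb entered through Fr2 alone, the fraction where it was high, so counts over these 7 describe them and support nothing further. The 3 comparisons share their arrays in pairs, so they are not independent of each other.

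No member passed limma's test at an adjusted p under 0.05 over all genes. The counts were 0 of 7 between Fr1 and Fr3 (background 0.0048%, 1 of 20817 genes), 0 of 7 between Fr1 and Fr2 (background 0%), 0 of 7 between Fr2 and Fr3 (background 0.0048%) and 0 of 7 in the F-test over the fractions (background 0.0048%). At an unadjusted limma p under 0.05 the counts were 1 (Tnnc2), 1 (Tnnc2), 1 (Mb) and 2 (Tnnc2 and Mb), where 8.16%, 9.77%, 8.91% and 9.95% of all genes lay. The p-values measure the spread between these sorts, 2 for each fraction.

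Between Fr1 and Fr3, the CD11c+ cells and the CD206hi macrophages of 1 slide, Tnnc2 stood at a mean of −3.21 ± 1.13 in Fr1 and −0.38 ± 0.07 in Fr3 (SD, n = 2 each). The difference, Fr1 minus Fr3, was −2.83 ± 0.68 on the log2 scale (SE; 95% interval −4.44 to −1.22; limma adjusted p = 0.311). Fr1 was not well above background. Each Fr1 value under the lowest detected signal of its array was therefore replaced by that signal, which made Fr3 2.93-fold higher. A probe not called detected can still lie above that signal, as Tnni2 did on Fr1 replicate 2 (−1.46 against −1.80). Folds computed in this way, here and below, are therefore not strict lower bounds. Over the settings that leave out no single array, limma's adjusted p ran from 0.154 to 0.703. With normexp background correction the difference was −0.30. That setting adds an offset of 50 to the signal, which makes log2 differences of dim probes smaller. Fitted on the 4 arrays of that slide alone it was −2.83, with an adjusted p of 0.463.

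The other members had adjusted p-values of 0.622 or more between Fr1 and Fr3 (limma). Myh4 differed by −0.98 ± 0.58 (SE; adjusted p = 0.635), with the Fr1 arrays below the Fr3 arrays by the probe A_55_P2744675, but by −0.21 with the mean of its kept probes. Acta1 differed by 0.19 ± 0.65 (SE; interval −1.35 to 1.73), Tnni2 by −0.27 ± 0.67, Tnnt3 by −0.32 ± 0.63 (−1.41 with the mean of its kept probes) and Ttn by −0.05 ± 0.60 (interval −1.48 to 1.38). These intervals allow differences of over 1 log2 unit either way. Mb, at 1.18 ± 0.58, was not well above background in either fraction and has no fold. The median over the 7 was −0.27, against −0.05 over all genes, and turned to 0.23 without Fr3 replicate 2; 2 of the 7 were higher in Fr1 by their means. The arrays did not overlap for Mb with Fr1 higher (1 of 7, background 13.7%) and for Tnnc2 and Myh4 with Fr3 higher (2 of 7, background 21.9%).

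Between Fr1 and Fr2, the fractions without CD206, Tnnc2 was again the member furthest apart. Its difference, Fr1 minus Fr2, was −2.10 ± 0.68 (SE, limma adjusted p = 0.434). That p ran from 0.294 to 0.874 over the other settings that leave out no single array. With undetected Fr1 values replaced as above, Fr2 was 1.77-fold higher, and with normexp the difference was −0.12. It was −1.30 without Fr1 replicate 1. Mb was not detected in Fr1, and the lowest detected signals there reach its Fr2 levels, so it has no fold (measured difference −1.32 ± 0.58, adjusted p = 0.527). Myh4 differed by −0.99 ± 0.58 (adjusted p = 0.614), while Tnnt3 differed by 0.91 ± 0.63 (adjusted p = 0.666), Acta1 by 0.80, Tnni2 by 0.69 and Ttn by 0.32. With the mean of its kept probes in place of the brightest, Myh4 stood at 0.07, the opposite sign. The median was 0.32 against 0.04 over all genes. It was −0.0028 without Fr2 replicate 1, 0.041 and 0.075 without Fr1 replicate 1 and 2, and −0.030 without a filter. By measured levels, Fr1 lay wholly above Fr2 for Tnnt3 (1 of 7, background 22.7%) and wholly below it for Tnnc2, Myh4 and Mb (3 of 7, background 22.2%).

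Between Fr2 and Fr3, the Adgre1 antigen-positive fractions without and with high CD206, Mb was higher and the troponins were lower in Fr2 by their means, none past the threshold. Mb stood at −1.98 ± 0.21 in Fr2 and −4.47 ± 0.44 in Fr3 (SD, n = 2 each). The difference was 2.49 ± 0.58 (SE; interval 1.10 to 3.88; limma adjusted p = 0.273, from 0.164 to 0.819 over the other settings). As Fr3 was not well above background, its values were replaced in the same way, which made Fr2 1.21-fold higher. With normexp the difference was 0.25. Tnnt3 differed by −1.23 ± 0.63 (adjusted p = 0.599), by −0.68 without Fr3 replicate 2 and by −1.92 with the mean of its kept probes. Tnni2 differed by −0.96 ± 0.67 (adjusted p = 0.642) and Tnnc2 by −0.73 ± 0.68 (adjusted p = 0.708). Acta1 differed by −0.60, Ttn by −0.37 and Myh4 by 0.01. The median was −0.60 against −0.08 over all genes, and was −0.18 with normexp and −0.22 without Fr3 replicate 2. Fr2 lay wholly above Fr3 for Mb (1 of 7, background 19.4%) and wholly below it for Tnnt3, Tnni2 and Tnnc2 (3 of 7, background 22.6%).

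**Figure D2:**
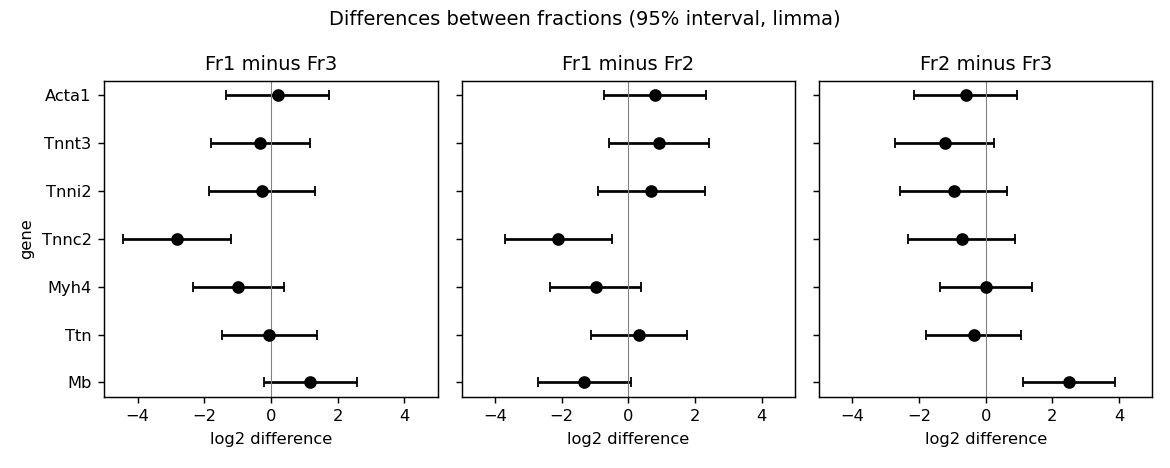
Difference in level between fractions (x axis, log2) for the 7 muscle genes tested (y axis), with points at limma's estimate and bars for its 95% interval, in 3 panels for the 3 pairs of fractions. The interval lies clear of 0 for Tnnc2 in both comparisons with Fr1 and for Mb between Fr2 and Fr3, while no adjusted p was under 0.05.

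**Figure D3:**
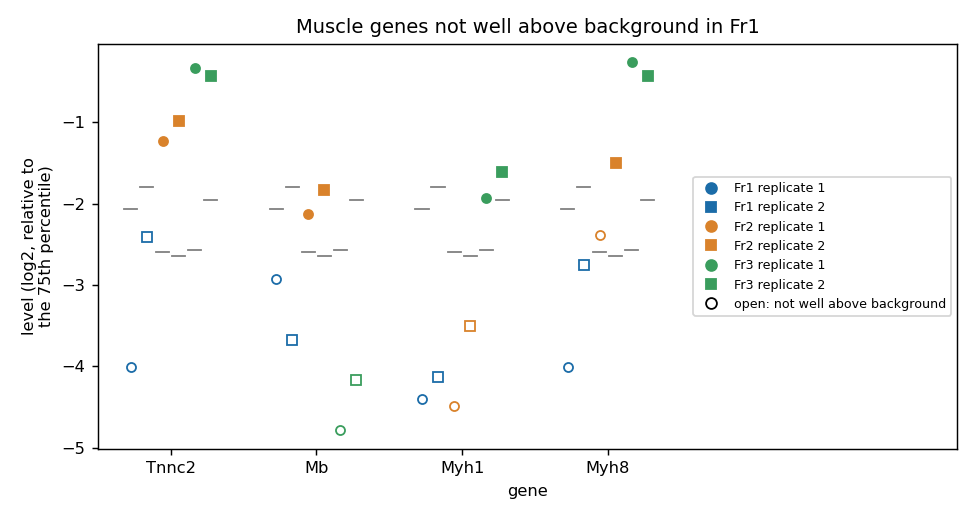
Level (y axis, on the log2 scale defined above) of Tnnc2, Mb, Myh1 and Myh8 on the 6 arrays; open symbols are not well above background, and grey ticks mark the lowest signal well above background on each array. Tnnc2, Myh1 and Myh8 have open symbols in Fr1 and filled ones at −1.93 or higher in Fr3, whereas Mb is filled in Fr2 alone.

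The members did not move as 1 block across the arrays. Among the 21 pairs of the 7 genes, Pearson's r over the 6 arrays ran from −0.71 (Tnnt3 and Mb) to 0.86 (Tnnt3 and Ttn), with a median of −0.03, and 9 pairs were positive. The mean profile of the 7, each centred on its own mean, was −0.20, −0.26, 0.06, −0.03, 0.01 and 0.42, highest on Fr3 replicate 2. The named genes nearest to that profile by root mean square distance were Dhx8 (0.0865 log2 units, r = 0.923), Tubb4b (0.0992, r = 0.892), Scamp2 (0.115, r = 0.858), Tsen34 (0.115, r = 0.895), Chd8 (0.120, r = 0.833), Cyp26b1 (0.124, r = 0.864), Ift20 (0.136, r = 0.876) and Cep120 (0.136, r = 0.819). The members' own distances from it were larger, from 0.371 for Ttn to 1.14 for Tnnc2.

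Summed over the 10 genes on a linear scale, with the 75th percentile as 1, the muscle signal was 8.24 and 9.80 in Fr1, 6.63 and 7.96 in Fr2, and 8.36 and 13.9 in Fr3. The sum mixes probes of unequal strength, so it compares arrays and not genes. Fr3 replicate 2 was the highest array, and Fr3 replicate 1 lay within the range of Fr1. Between 56.9% and 81.3% of each sum came from the bright Ttn and Tnnt3 probes. Without both genes the sums were 2.68 and 1.83 in Fr1, 2.86 and 2.35 in Fr2, and 2.96 and 3.57 in Fr3, which puts both Fr3 arrays on top; leaving them out was decided after their levels were seen. In bulk sorts of this kind, fewer muscle fragments and less RNA in each cannot be told apart.

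The Fr3 replicates differed with the base content of the probes. Over all genes, replicate 1 minus replicate 2 had a median of −0.72 for probes with at most 20% T and 0.28 for probes with over 30% T. For the members with at most 20% T (Acta1, Tnnt3, Tnni2 and Ttn) the median was −0.78, and for Tnnc2 and Myh4, with over 20 to 30%, −0.15. Mb, at 38.3% T, differed by −0.62. It was not well above background on either Fr3 array, so its value gives no reading of base content. The part of this in the members' Fr3 levels was not tested.

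Beyond the members, 60 other striated muscle genes were listed in 6 groups. Of these, 17 had no probe detected on any array and 37 entered the tests, where 20817 of the 37008 gene names on the array did. Between 29 and 36 of the 60 were detected per array, and limma called 0 of the 37 in each comparison. The share of all genes detected per array was not computed, so the detection counts cannot be called high or low. At an unadjusted p under 0.05, where 8.16%, 9.77% and 8.91% of all genes lay, 2 were higher and 3 lower in Fr1 than in Fr3, 3 higher and 2 lower in Fr1 than in Fr2, and 4 higher and 4 lower in Fr2 than in Fr3. Their medians were −0.11, 0.22 and −0.68 in those comparisons. Without overlap, 5 lay higher and 8 lower in Fr1 than in Fr3 (background 13.7% and 21.9%), 11 higher and 4 lower in Fr1 than in Fr2 (22.7% and 22.2%), and 7 higher and 17 lower in Fr2 than in Fr3 (19.4% and 22.6%). Some of the 37 entered through 1 fraction alone, where they were high, so these counts describe them and support nothing further.

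In the group of fast and other sarcomere genes, Myh1 and Myh8 were not detected in Fr1 and were detected on both Fr3 arrays. Myh1, another fast fibre myosin, gave −4.40, −4.13, −4.48, −3.50, −1.93 and −1.61, and was detected on the Fr3 arrays only, through which alone it entered the tests. With undetected values replaced as above, Fr3 exceeded Fr1 1.12-fold (limma difference −2.50 ± 0.59, adjusted p = 0.304) and Fr2 1.81-fold. Myh8, the perinatal myosin, gave −4.01, −2.75, −2.39, −1.50, −0.26 and −0.43. With the same replacement, Fr3 exceeded Fr1 3.00-fold (limma difference −3.03 ± 0.66, adjusted p = 0.275). Myh8 too entered through Fr3 alone, the only fraction with both arrays well above background. Over the 7 genes of this group tested, the median difference was −0.79 for Fr1 minus Fr3 and −1.24 for Fr2 minus Fr3. Wholly higher in Fr3 were 4 and 6 of them (background 21.9% and 22.6%). Myh1 and Myh8 are in both counts, so the counts describe these genes and support nothing further. Myh3 and Actn3 were detected on no array.

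Single genes of the other groups went in several directions. The median Fr2 minus Fr3 difference was −0.38 for slow and cardiac sarcomere genes (8 of 10 tested) and −0.89 for Z disc and M band genes (5 of 12). It was −0.91 for calcium handling (7 of 10) and −0.67 for energy metabolism (7 of 10). For myogenic regulator and satellite cell genes it was 0.99, over only 3 of 8. In these groups, in that order, 1, 5, 3, 1 and 5 genes had no probe detected on any array. Neb went against the median of its group, Z disc and M band, and Pfkm and Eno3 against that of energy metabolism. Eno3 differed by 1.86 ± 0.69 (SE, limma adjusted p = 0.516). Of the 7 energy metabolism genes tested, 2 lay wholly higher and 2 wholly lower in Fr2 than in Fr3 (background 19.4% and 22.6%). Casq1, the calcium store protein of fast fibres, gave −1.49, −1.52, −2.73, −3.40, −0.40 and −1.38. With undetected Fr2 values replaced as above, Fr3 exceeded Fr2 3.31-fold (limma difference −2.17 ± 0.61, adjusted p = 0.354). Neb, the nebulin gene of thin filaments, was highest in Fr2, at 0.18 and −0.49, and stood at −2.05 and, not detected, −2.90 in Fr3. Pfkm, the muscle phosphofructokinase, was detected in Fr2 alone like Mb, and entered the tests through that fraction. It stood there at −1.60 and −0.92, or 2.00-fold above Fr3 by the same replacement. Pax7, the satellite cell factor, was detected on Fr1 replicate 1 (−1.07) and both Fr2 arrays (−2.29 and −1.83), and not on Fr1 replicate 2 (−2.32) or in Fr3. Myog, which drives myoblast differentiation, was detected on all arrays, with means of 2.04, 1.67 and 0.68 in Fr1, Fr2 and Fr3, an order opposite to that of Tnnc2.

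**Figure D4:**
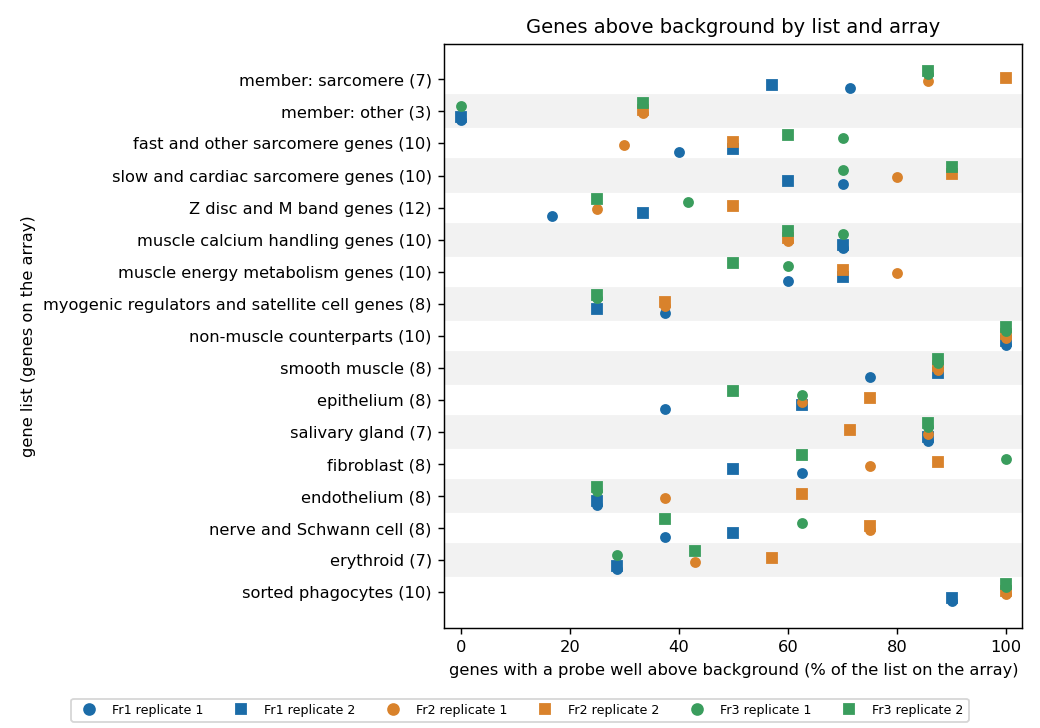
Share of each gene list with a probe well above background (x axis, percent of the list's genes on the array) on each of the 6 arrays, by list (y axis, number of genes on the array in brackets). The muscle lists spread between none and all of their genes, the non-muscle counterparts are at 100% on every array, and the sorted phagocyte list is at 90% or more.

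Genes that other cells use in place of the members were plainly present: Actb, Actg1, Vim and the other 7 cytoskeletal counterparts were detected on every array. Markers of other tongue tissues were also found. Summed levels here are over the genes of a list that entered the tests. A few bright probes can carry such a sum, so it compares arrays and not tissues, and gives no amount of a tissue. For 6 salivary gland genes the sum was 31.1 to 35.6 in Fr1, 121 to 309.5 in Fr2 and 39.9 to 56.8 in Fr3. It was thus highest in the fraction where Mb was detected. For 8 fibroblast genes the sum was 3.68 to 9.15, 6.89 to 11.8 and 5.48 to 6.49. Of these, 5 and 4 were detected on the Fr1 arrays. In Fr1, 2 lay wholly lower than in Fr3 and 3 wholly lower than in Fr2 (background 21.9% and 22.2%), and limma called 0. Col3a1, a defining collagen, was not well above background in Fr1, with a mean of −3.62 against −1.18 in Fr2 and −1.17 in Fr3. For 5 nerve and Schwann cell genes the sum was 22.3 to 36.8, 38.7 to 41.2 and 17.6 to 24.7. Sums of 7 smooth muscle genes, 93.9 to 104, 97.1 to 128 and 68.1 to 118, overlapped among the fractions. Those of 6 epithelial genes, 187 to 242, 196 to 212 and 178 to 290, overlapped too, but single epithelial genes differed. Krt6a was detected in Fr2 alone (−0.29 and −1.25), through which it entered the tests, and Krt14 on both Fr2 arrays and Fr3 replicate 1. Of the 6, 1 lay wholly higher and 2 wholly lower in Fr2 than in Fr3 (background 19.4% and 22.6%), and limma called 0. The 3 endothelial genes tested gave 1.17 to 2.36, 1.98 to 2.82 and 0.634 to 1.20. The part of these tissues in the muscle levels was not tested.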

How the data were processed

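RNA of the 6 sorts was amplified with a whole-transcriptome kit, labelled with Cy3 and hybridised to 1-colour Agilent mouse arrays of 60-base probes, per the labels' protocols. The authors scanned them and extracted spot intensity values with Agilent Feature Extraction 11.5.1.1, which subtracts background, per the file headers. The value table the authors deposited is on a log2 scale, with a 75th percentile of 0 to 0.01 and medians of −2.43 to −2.25 per array; against the scanner values r was at least 0.9999, and it served as an alternative. No spot was saturated (0), and 44.6% to 52.4% of non-control spots per array were well above background; 6 arrays limit the precision. The amplification can change which part of a transcript is seen.

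Levels are log2 processed signal minus the array's 75th percentile over non-control probes. Spots flagged as outliers were left out (4 probes lost), and spots of 1 probe were averaged. Probes well above background on both arrays of a fraction were kept, and each gene took its brightest kept probe, which gave 20817 genes. RefSeq names were found for 32994 probes through an accession, for 10224 through a symbol and for 520 through a synonym; the other 12867 kept the name in the files, and no member's name changed. Limma 3.58.1 in R 4.3.3 fitted 3 group means over all arrays, two-sided, with Benjamini-Hochberg adjustment, and was tested on simulated data. Python 3.11.15 read the files. The members and all gene lists were chosen with earlier results of these data known. Named were all 10 members, at most 2 genes of each other list by F-test p, the 8 genes nearest the members' mean profile and 5 leukocyte and sort markers; Myh3, Actn3 and Actg1 were named outside this rule, after their values were seen. Shared replicate numbers were not taken as pairs in the main fit. Deviations of same-numbered arrays correlated at 0.118 (Fr1, Fr2), 0.433 (Fr1, Fr3) and 0.0458 (Fr2, Fr3). With 2 arrays a fraction, these values cannot decide whether the numbers are pairs. Alternatives covered background correction (normexp with an offset of 50), scaling, the filter, the choice of probe, T-rich probes, the replicate block, the arrays fitted and each array left out.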

Additional observations from a re-analysis of the deposited data

How the results depend on the processing

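Under every alternative run, 0 members were called in each comparison and in the F-test, also with the replicate number as a block (replicate block: 0, 0, 0 and 0). Of 324 gene values, 310 kept their direction and 14 turned; the smallest adjusted p was 0.119 (limma, Tnnc2 without Fr3 replicate 1). Between Fr1 and Fr3, Ttn turned to 0.028 with quantile normalization. With 1 array left out, values there ran from −0.45 to 0.35 for Ttn (above 0 without Fr1 replicate 1, 0.19, or Fr3 replicate 2), −0.22 to 0.61 for Acta1 (below 0 without Fr1 replicate 1 or Fr3 replicate 1, −0.19), −0.92 to 0.38 for Tnni2 (above 0 without Fr1 replicate 2 or Fr3 replicate 1, 0.10) and −0.87 to 0.23 for Tnnt3 (above 0 without Fr3 replicate 2). Between Fr1 and Fr2, Myh4 turned to 0.074 with the mean of its kept probes, and Ttn ran from −0.0028 (without Fr2 replicate 1) to 0.64 with 1 array left out. Between Fr2 and Fr3, Myh4 turned to −0.28 with the mean of its kept probes, and with 1 array left out ran from −0.42 to 0.43 (below 0 without Fr2 replicate 1 or Fr3 replicate 1, −0.19), while Ttn ran from −0.77 to 0.033 (above 0 without Fr3 replicate 2). The median between Fr2 and Fr3 was −0.18 with normexp, −0.50 with the array median, −0.39 without a filter (10 genes) and −0.49 with detection on all 6 arrays required (4 genes), and −0.69 to −0.22 with 1 array left out. The cause of these moves was not tested, other than the genes entering.

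The summed level was 42.5, 47.8, 35.5, 43.0, 43.8 and 66.3 relative to the array median, a change of unit. It was 2.84, 2.55, 2.79, 2.24, 3.55 and 4.68 with the mean of all probes, 8.80 and 9.17 in Fr2 with normexp, and 2.68, 1.83, 2.86, 2.35, 2.96 and 3.57 without Ttn and Tnnt3. A slide block was not run, because 1 slide holds Fr2 alone. Without Fr3 replicate 1, limma called 1395, 3 and 933 of all genes in the 3 comparisons, against 1, 0 and 1. Signal over background limits Tnnc2, Mb and Myh1, which lie near it.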
